A study of Caenorhabditis elegans with 4 samples.

Results

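RNA levels of kinetochore and centromere proteins were examined in early embryos of C. elegans. The genes were taken by name and comprise hcp-3, cpar-1, hcp-4, knl-1, knl-2, knl-3, ndc-80, him-10, bub-1 and mis-12. All 10 were found on the array, among 20040 genes in all. Each is represented by 1 transcript and 3 probes. The data come from 4 samples of the wild-type strain N2, without any transgene or treatment, and all belong to the same group (replicates 1 to 4). Each is a pool of embryos released by bleach from gravid adults grown in liquid culture and then frozen, and the preparations hold embryos of mixed early stages. Total RNA was hybridized to single-color NimbleGen expression arrays. With a single group, no comparison between conditions is possible, and the values describe levels and their spread over embryo preparations.

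Kinetochores are the protein assemblies that attach chromosomes to spindle microtubules during cell division. In most animals they form at a single centromere, but C. elegans chromosomes are holocentric and build kinetochores along their whole length in mitosis. The foundation is chromatin that carries CENP-A, a variant of histone H3, and CENP-C binds to it. On this base assembles the KMN network, made up of KNL-1, the Mis12 complex and the Ndc80 complex, and the last of these holds the microtubule. Embryonic divisions in C. elegans are rapid and at first rely on RNA and protein loaded into the oocyte by the mother. Without HCP-3 or the KMN network, chromosomes of the early embryo fail to segregate.

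Levels are given as log2 of the deposited intensity, averaged over the 4 samples with the SD (n = 4). All 10 genes were well above the middle of the array. Their median log2 level was 14.32, against 7.82 for all genes, and their median percentile among all genes was 94.98. The files hold no background measurement, so a reference was taken from serpentine receptor genes, most of which act as chemoreceptors once neurons have matured. A gene was counted as above this reference when, in every sample, it exceeded all but the highest 2.5% of the 1343 receptor genes. This level lay between 8.47 and 8.70 (log2) in the 4 samples. All 10 genes exceeded it, as did 42.0% of all genes on the array. When genes were ranked by mean level, 8 of the 10 fell in the highest quintile, which by construction holds 20.0% of all genes. The other 2, knl-3 and cpar-1, were in the next quintile. These shares are descriptions, and no test against other genes was made. In samples of whole embryos, more cells with a transcript and more RNA per cell cannot be told apart.

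**Figure D1:**
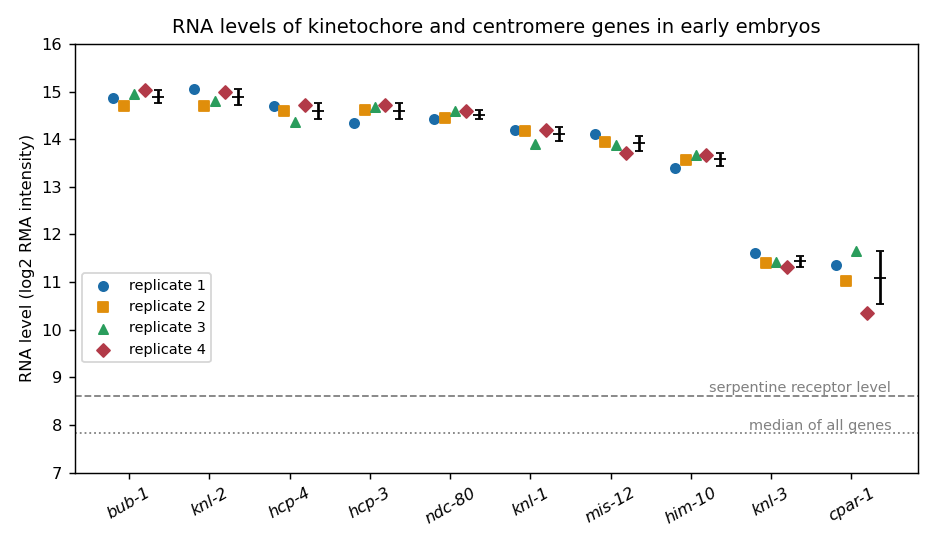
RNA levels (log2 RMA intensity, y axis) of the 10 genes, ordered by mean level, in each of the 4 samples (symbols), with the mean and SD over samples (black bars). The 8 genes from bub-1 to him-10, lie at or above 13.39 in every sample, whereas knl-3 and cpar-1 lie at or below 11.66, and cpar-1 has the widest spread.

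Among the samples, correlations across all genes were 0.968 to 0.992 (Pearson), and the 3 that involve replicate 4 were at most 0.973. All 10 marker genes of maternal and early embryonic RNA, such as pie-1 and mex-5, were in the highest quintile, and their summed intensity was 259819 to 284177 over the samples. Of 9 measured early zygotic markers, 6 exceeded the serpentine receptor level. Other cell types varied more. Only 2 of 8 markers of differentiated tissue exceeded that level, and their summed intensity was 2706 in replicate 3 but 5849 to 7816 in the others. For the 30 major sperm protein genes, 13 of which exceeded it, the sum was 10090 to 16197 in replicates 1 to 3 and 26564 in replicate 4. None of the 6 yolk protein genes exceeded it in every sample (sums of 653 to 1351). In replicate 4, which had the highest sum, vit-4 did exceed it (9.30, an intensity of 630). The 5 genes of meiotic chromosome structure all exceeded it in every sample. Their sums were 87049 in replicate 3 and 55230 to 61257 in the others. Samples also differed by gene length. Among genes of the highest 2 quintiles of expression, the shortest quintile deviated from the mean over samples by a median of 0.21 (log2) in replicate 3 and the longest quintile by -0.17. In replicates 1, 2 and 4 these medians were between -0.08 and 0.10.

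The CENP-A gene hcp-3 had log2 values of 14.34, 14.62, 14.67 and 14.72 in replicates 1 to 4 (14.59 ± 0.17). HCP-3 is the CENP-A on which mitotic kinetochores of the embryo are built. Replicate 1 was the lowest, and the values of the other samples lay close together. After the median deviation of genes of like length was subtracted (correction for gene length), hcp-3 deviated by -0.18, 0.11, -0.12 and 0.18, so that replicate 3 was also low. The range corresponds to 1.30-fold in intensity.

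The second CENP-A gene, cpar-1, encodes a relative of HCP-3 that is found on meiotic chromosomes and cleaved by separase in meiosis I. Its log2 values were 11.36, 11.01, 11.66 and 10.35 in replicates 1 to 4 (11.09 ± 0.56). The corresponding intensities were 2624, 2069, 3235 and 1302. Replicate 3 was the highest and replicate 4 the lowest, 2.49-fold apart. This SD was the largest of the 10 genes. The other 9 had SDs of 0.09 to 0.17. It was larger than the SD of 93.6% of the genes in the same expression quintile, whose median SD was 0.25. Without replicate 4, the SD of cpar-1 was 0.32, and without any other sample it was 0.51 to 0.69.

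**Figure D2:**
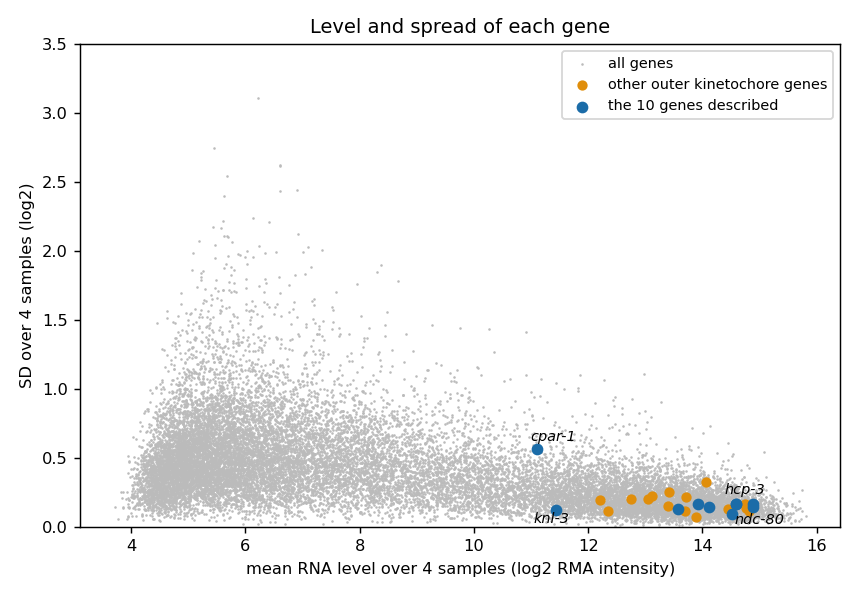
SD over the 4 samples (log2, y axis) against mean RNA level (log2 RMA intensity, x axis) for all 20040 genes (grey), other outer kinetochore genes (orange) and the 10 genes described (blue). Among the 10 genes, cpar-1 stands out with an SD of 0.56, whereas ndc-80 has the lowest at 0.09.

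In each sample, hcp-3 was far above cpar-1. The difference was 2.99, 3.61, 3.01 and 4.37 in replicates 1 to 4, or 3.49 ± 0.65 on the log2 scale (11.3-fold), and had the same sign in 4 of 4 samples. This and the 4 gene pairs below were assessed by an exact two-sided sign-flip permutation test over samples. All 5 pairs gave an exact permutation p = 0.13 (adjusted p = 0.13 over 5 pairs), the smallest p that 4 samples allow, so none could pass 0.05. Probes of different genes differ in affinity, and a difference in intensity between genes is therefore no direct ratio of RNA amounts. The proteins are close relatives, and whether probes of either gene also detect RNA of the other was not tested. The 2 genes did not move together over the samples. In replicate 4, hcp-3 was 0.13 above its own mean and cpar-1 fell by 0.75 below its own.

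Genes of meiotic chromosome structure also varied between these samples. Of the 5 in the list, all 5 were highest in replicate 3, as was cpar-1, and 3 were lowest in replicate 4. With the correction for gene length, these counts were again 5 and 3. The shares of all genes that were highest or lowest in these samples were not counted. The synaptonemal complex gene syp-1 had values of 14.08, 13.59, 14.55 and 13.68, and syp-2 had 13.90, 13.95, 14.65 and 13.88. For the meiotic cohesin gene rec-8, the values were 12.78, 13.03, 13.17 and 12.34. The axis genes him-3 and htp-3 ranged from 13.26 to 13.70 and from 13.47 to 13.86. The median deviation of the list was -0.10, -0.13, 0.34 and -0.21 in replicates 1 to 4. That of sperm genes was -0.42, -0.56, 0.08 and 0.88, and that of differentiated tissue markers 0.26, 0.31, -0.79 and 0.17. The differentiated tissue markers went both ways in replicate 4, from -1.04 (myo-3) to 0.51 (col-19). The mean levels of these 2 genes, 7.31 and 5.03, were below the serpentine receptor level. The gene cpar-1 itself is in the shortest quintile of gene length, which was high in replicate 3. After the correction for gene length, cpar-1 deviated by 0.33, -0.0034, 0.36 and -0.70, and replicate 3 was then hardly above replicate 1. The part of any of these in the variation of cpar-1 was not tested.

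**Figure D3:**
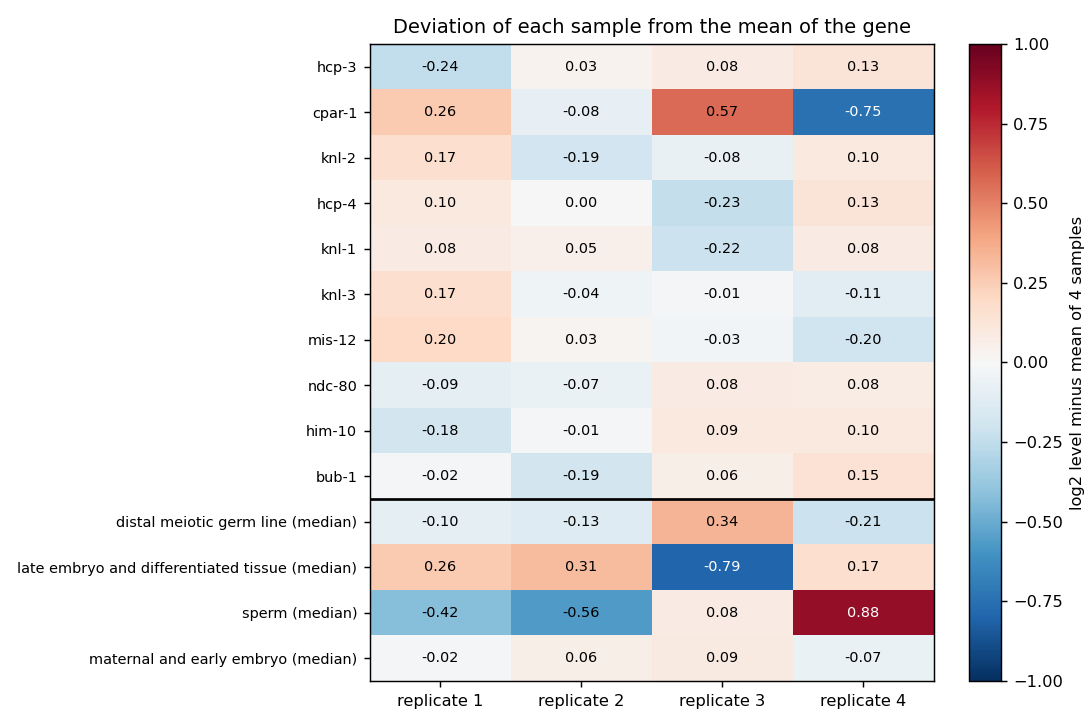
Log2 level in each sample minus the mean of the same gene over the 4 samples (colour and printed value), for the 10 genes above the black line and, below it, as the median of 4 marker lists. For cpar-1 the values run from -0.75 in replicate 4 to 0.57 in replicate 3. For the other genes, they run from -0.24 (hcp-3 in replicate 1) to 0.20 (mis-12 in replicate 1).

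Deposition of CENP-A on chromatin requires KNL-2, which contains a Myb-like domain and is the relative of vertebrate M18BP1. The level of knl-2 was 15.06, 14.69, 14.81 and 14.99 in replicates 1 to 4 (14.89 ± 0.17). Replicates 1 and 4 were thus above replicates 2 and 3. The log2 value of knl-2 exceeded that of hcp-3 in 4 of 4 samples, by 0.72, 0.07, 0.14 and 0.27 (0.30 ± 0.29). This difference was about as large as its own spread, and without replicate 1 it was 0.16. After the correction for gene length, its sign was the same in 3 of 4 samples, with -0.03 in replicate 2 (exact sign-flip permutation p = 0.25). CENP-C is encoded by hcp-4 and connects CENP-A chromatin to the outer kinetochore. It had values of 14.69, 14.59, 14.35 and 14.72 (14.59 ± 0.17), with replicate 3 the lowest.

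KNL-1 is the scaffold of the outer kinetochore, to which the Ndc80 complex and the checkpoint kinase BUB-1 are recruited. The gene knl-1 had log2 values of 14.20, 14.17, 13.90 and 14.20 in replicates 1 to 4 (14.12 ± 0.14). The values of replicates 1, 2 and 4 nearly coincided, and replicate 3 lay below them. This profile resembled that of hcp-4. The difference between hcp-4 and knl-1 was 0.47 ± 0.04, the smallest spread of any of the 45 pairs of genes. Both had their lowest value in replicate 3. They lie in the middle and the fourth quintile of gene length, whose medians in replicate 3 were 0.07 and -0.03. After the correction for gene length, hcp-4 deviated by -0.31 and knl-1 by -0.19 in replicate 3, and the spread of their difference was 0.09. Replicate 3 was then the lowest sample for 4 of the 10 genes, among them mis-12 and knl-3.

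In the Mis12 complex, which joins KNL-1 and the Ndc80 complex to the inner kinetochore, mis-12 and knl-3 encode subunits. The values of mis-12 were 14.11, 13.94, 13.89 and 13.72 (13.92 ± 0.16), and those of knl-3 were 11.60, 11.39, 11.42 and 11.32 (11.43 ± 0.12). For both genes, replicate 1 was the highest and replicate 4 the lowest. After the correction for gene length, replicate 1 was still the highest, but replicate 3 was the lowest (-0.23 for mis-12 and -0.15 for knl-3, against -0.15 and -0.08 in replicate 4). The intensity of knl-3 was lower in all 4 samples, and the difference of 2.48 ± 0.06 was nearly constant (2.51, 2.55, 2.47 and 2.40). It corresponds to 5.59-fold in probe intensity. Of all genes described, knl-3 had the second-lowest SD after ndc-80, and 11.1% of genes in its expression quintile had a smaller SD.

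The Ndc80 complex binds microtubules directly. NDC-80 carries the main microtubule-binding domain, and HIM-10 is the Nuf2 subunit that pairs with it. Log2 values of ndc-80 were 14.43, 14.45, 14.59 and 14.59 (14.51 ± 0.09), and those of him-10 were 13.39, 13.57, 13.67 and 13.67 (13.58 ± 0.13). For both genes, replicates 3 and 4 were above replicates 1 and 2. For him-10, this did not hold after the correction for gene length, with deviations of -0.14, 0.03, -0.04 and 0.13. The level of ndc-80 was higher than that of him-10 in each sample, by 1.03, 0.88, 0.92 and 0.92 (0.94 ± 0.07, 1.92-fold). Of the 45 pairs, the pair of Mis12 genes and the pair of Ndc80 genes had the third and the fourth smallest spread. The second smallest, 0.05, was between hcp-3 and him-10, which act in the inner and the outer kinetochore. The median over all pairs was 0.22. These pairs and that of hcp-4 and knl-1 also had the 4 smallest spreads, of 0.07 to 0.09, after the correction for gene length, in another order. All 9 pairs with cpar-1 had spreads of at least 0.47, and the other 36 had at most 0.32.

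The kinase BUB-1 acts at kinetochores in chromosome alignment and in the spindle checkpoint. Its gene bub-1 had values of 14.87, 14.71, 14.95 and 15.04 in replicates 1 to 4 (14.89 ± 0.14), the highest mean of the 10 genes. Replicate 2 was the lowest and replicate 4 the highest, 1.26-fold apart. The level of bub-1 was above that of knl-1, its binding platform, by 0.68, 0.54, 1.05 and 0.84 (0.78 ± 0.22) in 4 of 4 samples.

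By mean level, the order was bub-1, knl-2, hcp-4, hcp-3, ndc-80, knl-1, mis-12, him-10, knl-3 and cpar-1. Of the 9 pairs of neighbours in this order, 5 kept it in every sample. The 4 that did not were bub-1 and knl-2 (difference 0.003 ± 0.14), hcp-4 and hcp-3 (0.001 ± 0.27), hcp-3 and ndc-80 (0.07 ± 0.11), and knl-3 and cpar-1 (0.34 ± 0.50). In replicate 3, cpar-1 was above knl-3, and in the other samples it was the lowest of all. Of all 45 pairs, 40 kept their order in every sample. With the correction for gene length, 37 pairs and 4 of the 9 pairs of neighbours did. The widest step between neighbours was from him-10 to knl-3 (2.14 ± 0.24).

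No sample was highest or lowest for the group as a whole. Replicate 4 held the highest value of 5 genes and the lowest of 3. The highest values of the others were in replicate 1 (3 genes) or replicate 3 (2 genes). After the correction for gene length, replicate 4 held the highest value of 6 genes and the lowest of 1. The median deviation of the 10 genes was 0.09, -0.02, 0.02 and 0.09 in replicates 1 to 4, beside 0.0001, -0.01, 0.03 and -0.02 for all genes. It was 0.03 in replicate 1 and 0.19 in replicate 4 when arrays were centred on their medians. Its sign turned after the correction for gene length in replicates 2 (0.0065) and 3 (-0.09). Among the other 8006 genes in the highest 2 quintiles of expression, those with deviations nearest to the uncorrected medians were ztf-18, srdf-2.2 and T22C1.6 (root mean square difference of 0.05 over 4 samples for each). The deviations of a single gene cancel out over the samples, whereas these medians do not, so a full match was not possible for any gene. According to the RefSeq table of assembly WBcel235, 4 of the 10 genes are on chromosome I, 4 on chromosome III, and ndc-80 and knl-3 are on chromosomes IV and V. None is on the X chromosome.

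Further genes of the kinetochore and its partners were similarly high. All 15 other outer kinetochore genes exceeded the serpentine receptor level, 12 of them were in the highest quintile, and their median log2 level was 13.70. The highest were hcp-1, which encodes a CENP-F-like protein, at 14.81 ± 0.11, and kbp-3, a subunit of the Ndc80 complex, at 14.77 ± 0.14. Those with the lowest values were klp-7, which encodes a kinesin that depolymerizes microtubules, at 12.35 ± 0.11, and kbp-5 at 12.21 ± 0.19. The remaining subunits of the Mis12 and Ndc80 complexes, kbp-1, kbp-2 and kbp-4, were at 13.12 ± 0.22, 12.76 ± 0.20 and 13.41 ± 0.25. Within the Mis12 complex, kbp-1 and kbp-2 were lowest in replicate 1 (12.80 and 12.55), in which mis-12 and knl-3 were highest. The near-constant difference between mis-12 and knl-3 thus did not extend to the other subunits.

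The 4 spindle checkpoint genes, which delay anaphase until chromosomes are attached, were all in the highest quintile. The levels were 14.62 ± 0.08 (mdf-2), 14.04 ± 0.14 (bub-3), 13.84 ± 0.16 (mdf-1) and 13.67 ± 0.07 (san-1). The chromosomal passenger complex, which corrects faulty attachments, had icp-1 at 14.33 ± 0.14, the Aurora B gene air-2 at 14.02 ± 0.09, bir-1 at 13.61 ± 0.18 and csc-1 at 13.10 ± 0.29. All 4 were in the highest quintile. So were the 5 mitotic kinases and cyclins, with plk-1 at 15.37 ± 0.07 and cyb-3 at 15.07 ± 0.19, followed by air-1 at 14.77 ± 0.07, cyb-1 at 14.17 ± 0.21 and cdk-1 at 14.15 ± 0.06.

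Condensin compacts mitotic chromosomes, and all 5 of its genes in the list were in the highest quintile. They were smc-4 at 14.73 ± 0.10, mix-1 at 14.61 ± 0.09, hcp-6 at 14.19 ± 0.13, kle-2 at 13.91 ± 0.10 and capg-1 at 13.36 ± 0.25. The histone chaperone gene lin-53, whose product binds histone H3 and H4, was at 14.59 ± 0.13. In these 5 lists together, 34 of 34 genes exceeded the serpentine receptor level and 31 were in the highest quintile, with SDs of at most 0.32. None thus reached the SD of cpar-1. All of them had a higher mean level than cpar-1, however, the lowest being 12.21 against 11.09. Most were in the highest quintile, where the median SD was 0.17, against 0.25 in that of cpar-1.

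Histone H3 variants other than CENP-A were less uniform. The H3.3 gene his-72 had a mean of 14.87 ± 0.21, and his-71, another H3.3 gene, had 10.77 ± 0.10. The variant gene his-74 had values of 13.37, 13.91, 14.22 and 13.21 in replicates 1 to 4 (13.68 ± 0.47). It was thus highest in replicate 3 and lowest in replicate 4, as cpar-1 was. Among the 34 genes of the other partner lists, the same was true of csc-1, mdf-2 and klp-7. The share of all genes with this order of samples was not counted. With the correction for gene length it still held for csc-1 and klp-7. The gene mdf-2 was then lowest in replicate 1 (-0.09, against -0.05 in replicate 4). After the correction for gene length, his-74 deviated by -0.24, 0.31, 0.33 and -0.42, and replicate 3 was then hardly above replicate 2. Neither his-70 (6.17 ± 0.15) nor his-69 (5.17 ± 0.63) exceeded the serpentine receptor level. Genes for H3 variants are similar in sequence, and their probes may also share RNA.

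**Figure D4:**
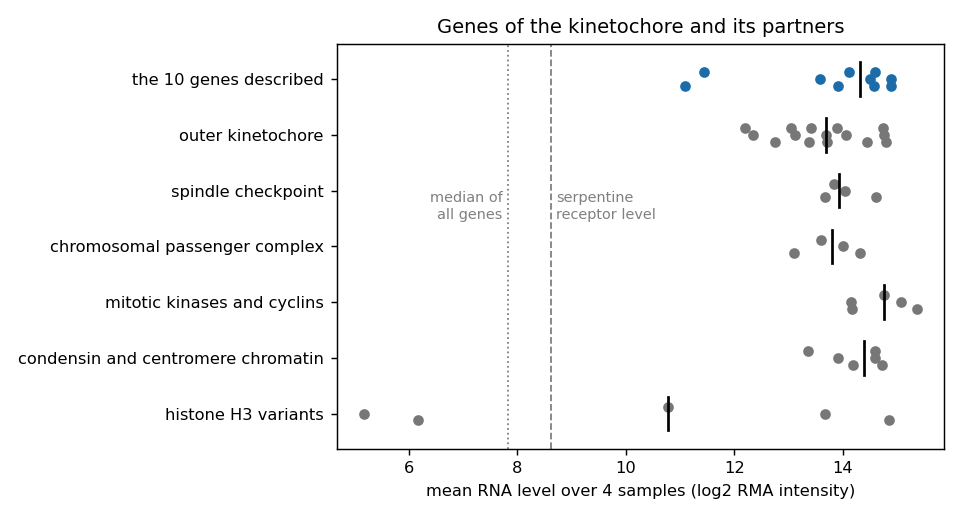
Mean RNA level over 4 samples (log2 RMA intensity, x axis) of each gene (points) in the 10 genes described (blue) and in 6 partner lists (grey), with list medians as vertical bars. The 10 genes have a median of 14.32, and all partner genes other than his-69 and his-70 lie to the right of the serpentine receptor level (dashed line). The dotted line is the median of all genes, 7.82.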

How the data were processed

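RNA of 4 early embryo samples was measured on NimbleGen arrays. The authors quantile normalized the arrays, summarized the probes by RMA and deposited intensities on a linear scale. The sources used here do not name software versions, array annotation or genome build. The series table held the same intensities (0 of 92720 values differed).

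Intensities were converted to log2 with a pseudocount of 0. Transcripts of a gene (23180 in all) were averaged to 20040 genes, of which 19383 had a symbol, chromosome and length in a RefSeq table of assembly WBcel235. Gene length served only to rank genes into quintiles (96.7% of genes and 10 of the 10 described had a value). No filter was applied. Genes and lists were chosen with earlier results of these data known. Every gene described is named. For other lists, all genes were named for up to 6 genes, and otherwise the 2 highest and 2 lowest. The genes kbp-1, kbp-2 and kbp-4 were added after their values were seen. Of the marker lists, only the meiotic genes were all named, and pie-1 and mex-5 were given as examples. The genes myo-3 and col-19 were named as the extremes of their list in replicate 4, and vit-4 for its value in that replicate. Of the early zygotic list, vet-4 had no match by symbol. Nearest profiles were taken by root mean square difference. Gene pairs were compared by the exact sign-flip test, with Benjamini-Hochberg adjustment over 5 pairs. The calculations were tested on simulated data. Alternatives were leaving out each replicate, medians, linear means, the highest transcript, centred arrays, the series table, other receptor percentiles and bins, and, added after the data were seen, a correction for gene length. Samples come from separate embryo preparations according to the methods. The labels and the methods differ on how many RNA samples received DNase, and samples were not divided by it. Python 3.11.15, numpy 2.4.6, pandas 2.3.3 and matplotlib 3.10.9 were used.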

Additional observations from a re-analysis of the deposited data

Results flagged for a closer look

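In 5 of 43 genes examined, 1 sample lay far from the others, measured as its gap to the nearest sample over the whole range of the gene. Chance alone gives about 1 in 20 when the values of a gene are independent and normally distributed. These genes share the same arrays, and the share over all genes was not counted. Whether 5 of 43 is an excess was thus not tested. Among the 10 genes described, this applied to knl-1, whose value in replicate 3 was 13.90 and whose nearest value was 14.17 (gap ratio 0.893, above the critical value of 0.83). Of the meiotic genes, syp-2 (14.65 against 13.95, gap ratio 0.913) and him-3 (13.70 against 13.30, 0.912) were high in replicate 3. The passenger complex gene bir-1 was high in replicate 4 (13.88 against 13.52, 0.954), and plk-1 was high in replicate 2 (15.47 against 15.35, 0.838). For cpar-1, which had the largest spread of the 10 genes, the ratio was 0.51. These ratios were taken without the correction for gene length. With it, knl-1 deviated by -0.19 in replicate 3, and its nearest value was 0.02. In the same replicate, syp-2 was at 0.35 against -0.07 and him-3 at 0.11 against -0.01. For bir-1, replicate 4 was at 0.32 against -0.01, and replicate 3 was then at -0.31. For plk-1, replicate 2 was at 0.11 against 0.0. All 5 gaps were narrower, and the ratio was not taken again.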

How the results depend on the processing

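No comparison between conditions, paired or unpaired, was possible because all samples belong to 1 group. All 10 genes stayed above the serpentine receptor level in every setting, also at the 95th and the 99th percentile. The number in the highest quintile was 8 in every other setting, and 7 when the highest 10% of genes was taken in its place. The median log2 level was 14.29 to 14.35, and the mean of each of the 5 differences between genes kept its sign in each setting, from 3.20 to 3.66 for hcp-3 and cpar-1. The median deviation of the 10 genes moved by more than its spread between replicates in 3 cases. When arrays were centred on their medians, it was 0.028 in replicate 1 and 0.193 in replicate 4. When the median of genes of like length was subtracted, it was -0.086 in replicate 3. The same correction turned the sign in replicate 2 (0.0065). The deviations in replicates 2 and 3 therefore had no settled sign. Levels were read without a detection call, and 4 arrays limit the precision of each value.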
